A study of Mus musculus with 4 samples.

Results

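The transcriptome described here is that of Langerhans cells from the ear epidermis of wild-type C57BL/6 mice after 16 hours in culture. It was read from 2 of the 4 Affymetrix MOE430A arrays of the study. The other 2 arrays came from mice lacking exon 2 of the aryl hydrocarbon receptor gene and were not used here. Mice of both genotypes were untreated, and the labels give no age, no sex and no number of mice behind a sample. One label has epidermal sheets in culture and another a suspension of single cells. In both accounts the low-density fraction, in which 20 to 35% of cells were Langerhans cells, was sorted by flow cytometry for live cells bearing MHC class II. The stated purity is above 95%. The RNA was amplified with a MessageAmp kit before it was labelled with biotin. Both arrays are called biological replicates, so the spread between them is that between 2 samples, which may hold technical parts. After control probe sets and probe sets without a single gene symbol were set aside, 12393 genes were ranked, each by the probe set that was brightest over both arrays.

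Langerhans cells are the dendritic cells of the epidermis. In place they take up antigen between keratinocytes, to which they are held by adhesion molecules, and they carry the lectin langerin, which forms Birbeck granules. When epidermis is taken into culture they mature. They then lower uptake, display peptides on MHC class II and class I, raise costimulatory molecules, extend dendrites and acquire the chemokine receptor that leads dendritic cells to the draining lymph node. All cells measured here had been through that culture step, and uncultured cells were not analysed here.

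Signal is given as log2, so 1 unit is a doubling, and pairs of values are replicate 1 and then replicate 2. A probe set's signal depends on how well its probes bind as well as on the transcript, so ranks order signals and not transcript numbers. Of the 427 genes of the top 5% with more than 1 probe set, 145 had another probe set below the array median. The means of the genes ran from 2.92 to 13.47. The quartiles of all probe sets lay at 4.56, 5.61 and 6.88, and the array medians were 5.62 and 5.60. Since the strongest probe set of each gene was taken, 30.3% of genes lay above the array's top quartile and 16.8% below its bottom quartile. The highest-ranked 5% of genes numbered 619, which is 4.99%, and reached down to a mean of 9.31. Counts of list members below are to be read beside these shares of all genes. No detection calls were used, so the signal of genes that epidermal immune cells have little reason to make served as a guide to the bottom of the scale. For 92 genes known from neurons, liver, germ cells, muscle, or pancreas and gut the median was 4.99 and the 95th percentile 6.48. That level was chosen after the values were seen, and 39% of genes lay above it. Among these genes only Tex14, a germ cell gene, lay above the array's top quartile, at 8.78 and 8.62. A signal at this level does not show that a transcript was absent, and in sorted samples fewer cells of a type and less RNA per cell cannot be told apart.

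All 5 genes given as markers of the cells were in the top 5%. Cd207, which encodes langerin, had log2 signals of 11.00 and 12.06 and ranked 52 of 12393. Epcam, an adhesion molecule of Langerhans cells and epithelia, had 11.02 and 11.38. Ccr7, the lymph node homing receptor, had 11.03 and 11.20. These 3 lay far above the tissue-restricted genes on both arrays. H2-Aa, the alpha chain of the class II molecule I-A, had 11.25 and 10.92. Cd74, the invariant chain that guides class II molecules to the endosome, had 10.15 and 10.39. The last pair belongs to the pathway on which the cells were sorted, so their level is no independent check of the label. The arrays differed most for Cd207, by 1.06 with the higher value on replicate 2, and by 0.36 or less for the other 4.

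**Figure D1:**
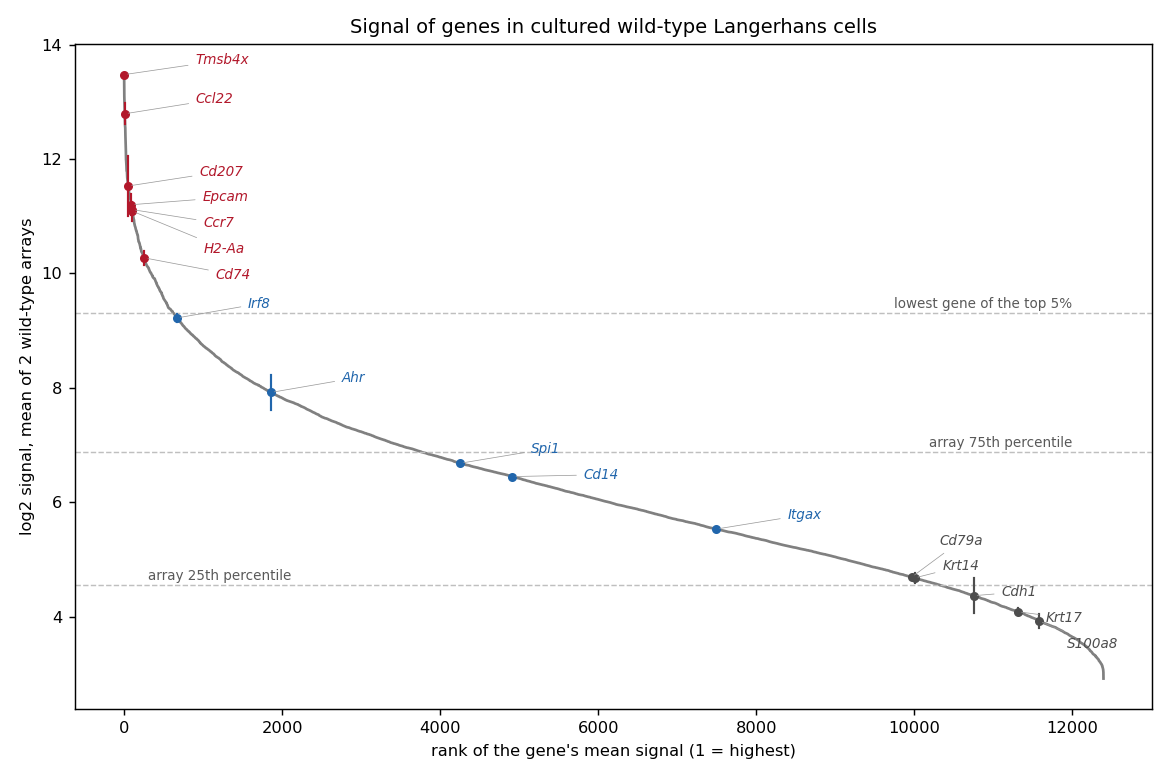
Mean log2 signal of 2 wild-type arrays (vertical axis) against the rank of 12393 genes (horizontal axis, 1 = highest), with selected genes as points and vertical bars joining the values of the 2 arrays. The 5 given markers lie above the top 5% line at 9.31, and Itgax lies between the quartile lines at 5.53. Krt14, Krt17 and the neutrophil gene S100a8 lie near or below 4.56, and other keratins are not plotted.

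To show what stands before some of the genes with the highest signals, the 200 bases upstream of the RefSeq start are printed for 6 of them, on the gene's own strand in GRCm38.p6. They are class II genes (H2-Aa, H2-Eb1), class I genes (H2-D1 and B2m, its partner chain), the NF-kB target Nfkbia and the langerin gene. Capitals mark the class II Y box letters CTGATTGG on either strand, the CRE letters TGACGTCA, the AP-1 letters TGANTCA, or the NF-kB consensus.
H2-Aa, chr17:34287824-34288023, minus strand: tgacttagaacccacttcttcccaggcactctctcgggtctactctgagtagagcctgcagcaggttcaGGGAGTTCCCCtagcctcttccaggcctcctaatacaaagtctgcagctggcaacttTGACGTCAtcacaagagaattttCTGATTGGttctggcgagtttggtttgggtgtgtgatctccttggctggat
H2-Eb1, chr17:34305667-34305866, plus strand: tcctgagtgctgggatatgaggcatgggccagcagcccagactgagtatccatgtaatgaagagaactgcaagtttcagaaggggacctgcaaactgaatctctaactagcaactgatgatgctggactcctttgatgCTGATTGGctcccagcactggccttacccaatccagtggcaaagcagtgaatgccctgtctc
H2-D1, chr17:35262894-35263093, plus strand: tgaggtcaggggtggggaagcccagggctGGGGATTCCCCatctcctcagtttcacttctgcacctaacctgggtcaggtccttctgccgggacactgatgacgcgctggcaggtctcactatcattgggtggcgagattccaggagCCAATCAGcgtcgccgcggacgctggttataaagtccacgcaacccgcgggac
B2m, chr2:122147487-122147686, plus strand: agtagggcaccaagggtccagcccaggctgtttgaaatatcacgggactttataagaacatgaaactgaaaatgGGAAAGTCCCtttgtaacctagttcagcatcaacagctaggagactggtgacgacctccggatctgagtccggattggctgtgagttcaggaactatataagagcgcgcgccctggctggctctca
Nfkbia, chr12:55492648-55492847, minus strand: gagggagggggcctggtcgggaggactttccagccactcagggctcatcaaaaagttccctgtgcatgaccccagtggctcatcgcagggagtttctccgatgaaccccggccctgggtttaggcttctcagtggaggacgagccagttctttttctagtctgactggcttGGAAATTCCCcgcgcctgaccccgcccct
Cd207, chr6:83677858-83678057, minus strand: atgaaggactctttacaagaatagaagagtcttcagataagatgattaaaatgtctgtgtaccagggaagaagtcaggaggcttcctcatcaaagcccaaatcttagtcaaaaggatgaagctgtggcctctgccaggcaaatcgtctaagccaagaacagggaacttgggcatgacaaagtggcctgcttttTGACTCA

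Windows of 300 bases, 250 before and 50 after the start, were searched on both strands for 32851 RefSeq promoters. CTGATTGG was in 4.10% of them, TGACGTCA in 1.79%, TGANTCA in 7.81% and the NF-kB consensus in 4.51%. In H2-Aa the Y box letters begin 51 bases before the start and the CRE letters 74 bases before it, with overlapping NF-kB matches at 131 and 130 bases. H2-Eb1 has CTGATTGG at 62 bases. In H2-D1 it lies at 53 bases on the other strand, with overlapping NF-kB matches at 171 and 170 bases. Single NF-kB matches lie at 126 bases in B2m and at 29 bases in Nfkbia, and TGANTCA begins 7 bases before the start of Cd207. Of the 17 measured class I presentation genes, 14 had a promoter in the table and 5 of these held CTGATTGG: Canx, H2-D1, H2-K1, Psmb9 and Tap1. For class II, 10 of 15 genes had a promoter and 3 held these letters, and for the maturation genes it was 22 of 33 and 0. The NF-kB consensus was in 4 class I, 3 class II and 5 maturation genes. No test was made over these lists, which are short and lack promoters for some members. These are matches of letters, and no binding was measured.

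Among 29 measured genes of Langerhans and dendritic cell identity, 8 were in the top 5% (27.6% of the list) and 17 above the array's top quartile. Besides Cd207 and Epcam, the highest was Csf1r, the receptor through which Langerhans cells depend on interleukin-34 and CSF-1, at 11.07 and 11.70. Ly75, the endocytic receptor DEC-205, had 10.03 and 10.25. Cd24a, a surface glycoprotein of dendritic cell subsets, had 9.72 and 9.83. Ptprc, the pan-leukocyte phosphatase CD45, had 9.43 and 9.97. Flt3, the growth factor receptor of dendritic cells, was just outside the top 5% at 9.05 and 9.35. Several surface genes used to describe Langerhans cells had low signals. Itgax, which encodes CD11c, had 5.54 and 5.53, below the array median. Itgam, which encodes CD11b, had 4.71 and 4.48, and Cdh1, the E-cadherin that anchors Langerhans cells to keratinocytes, 4.06 and 4.68. Each of these 3 genes is represented by a single probe set, and all lay below the 6.48 of the tissue-restricted genes on both arrays. Itgae, the integrin CD103, had 6.74 and 6.82. Tgfbr2 and Tgfbr1, receptors for the TGF-beta that Langerhans cells need, were above the top quartile at 7.61 and 7.61 and at 7.02 and 7.40. Their other probe sets lay below the array median, with means of 4.83 and 3.39 for Tgfbr2 and 4.33 and 3.67 for Tgfbr1.

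Of 22 transcription factors of myeloid and Langerhans cells, 2 were in the top 5% and 11 above the top quartile. Id2, an inhibitor of helix-loop-helix factors required for Langerhans cells, had the highest signal of them at 11.53 and 11.75. Stat3, which carries cytokine signals, had 10.08 and 10.20. Irf8, a factor of monocyte and dendritic cell lineages, had 9.15 and 9.29. The NF-kB subunits Relb and Rel, tied to dendritic cell maturation, had 8.70 and 8.83 and 8.27 and 8.77. Batf3, a factor of cross-presenting dendritic cells, had 8.39 and 8.08, and Zbtb46, a factor of classical dendritic cells, had a mean of 8.12, with 0.25 between the arrays. Ahr had 7.61 and 8.23, and its other probe set 6.27 and 6.30. Spi1 (PU.1) and Runx3, both needed for Langerhans cells to form, had 6.64 and 6.73 and 6.60 and 6.45, close below the array's top quartile. Irf4 had 5.09 and 5.17 and Zeb2 4.45 and 4.17, both below 6.48.

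The 30 genes with the highest signal had means from 11.93 to 13.47 and together made up 8.72% and 8.68% of the summed linear signal of all genes. The top 5% made up 44.0% and 44.7% of it. First was Tmsb4x, which encodes thymosin beta 4, a binder of actin monomers, at 13.48 and 13.47. Cst3, the cysteine protease inhibitor cystatin C, was next at 13.37 and 13.44. Crip1, a small LIM-domain protein, followed at 13.63 and 12.66. Cytip, which binds cytohesin and is known from maturing dendritic cells, had 12.99 and 13.19. Ccl22, a chemokine for CCR4-bearing T cells, was ninth at 12.97 and 12.61. It was the only chemokine among the 30. Basp1, a membrane-bound signalling protein best known from nerve endings, had 12.77 and 12.75. Fscn1, the actin bundler of mature dendritic cells, had 12.68 and 12.53. Actin and its partners were a sizeable group among the 30, with Actb, Actg1, Myl12a and Arpc2 between 11.81 and 13.05 on either array. Vim, the intermediate filament vimentin, had 11.90 and 12.06. Protease control was present through Serpinb9, an inhibitor of granzyme B, at 12.29 and 12.24, and Serpinb6b at 12.06 and 11.91. Ctss, the endosomal protease that trims the invariant chain, had 11.90 and 12.63. The calcium-binding genes Anxa2 and S100a4 had 12.94 and 13.13 and 12.50 and 12.34, and the lectin Lgals3 12.35 and 12.46. The remaining genes were H2az1, Eef1a1, Malat1, Btg1, Tpt1, Hspa8, Pgk1, Gdi2, Txn1, Akr1a1, Ier3 and Uqcrb. Of the 30, Malat1 (12.04 and 13.35) and Uqcrb (12.49 and 11.41) differed by more than 1 between the arrays.

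Of 15 measured genes for MHC class II presentation, 6 were in the top 5% and 11 above the array's top quartile. The chains of the class II molecules differed in signal. H2-Aa stood at 11.25 and 10.92, but its other probe set had 8.53 and 8.47. H2-Eb1, the I-E beta chain, had 9.74 and 9.60. H2-Ab1, the I-A beta chain, had 8.87 and 8.66, and its 3 probe sets reached down to a mean of 6.52. The order of H2-Aa and the beta chains therefore depends on the probe set chosen. Ifi30, the reductase that opens disulfide bonds in antigens, had 10.20 and 10.46. Ctsh, an endosomal aminopeptidase, had 9.41 and 9.68. H2-DMb2, a chain of the peptide exchanger, was just above the top quartile at 6.90 and 6.98, and H2-DMa, its partner, had 5.26 and 5.19. H2-Oa, part of the inhibitor of that exchanger, had 5.68 and 5.76. Ciita, the master coactivator of class II genes, had 5.11 and 5.24, below 6.48 on both arrays. The cells had been sorted on MHC class II at their surface, and the part of the sort in these signals was not tested.

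Of 25 lysosomal and endosomal genes, 9 were in the top 5% and 22 above the top quartile. Ctsz, a lysosomal carboxypeptidase, had 11.44 and 12.14. Npc2, which carries cholesterol out of lysosomes, had 11.57 and 11.97. Lamp1, the major lysosomal membrane protein, had 9.95 and 10.73. Ctsd and Ctsl, further lysosomal proteases, had 7.72 and 8.07 and 6.94 and 7.60. Lgmn, the asparagine endopeptidase, had a mean of 6.65, with 0.70 between the arrays, and Ctse was lowest at 5.64 and 5.39. In this list 22 of the 25 genes were higher on replicate 2, with a median difference of 0.40.

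MHC class I presentation had 7 of 17 genes in the top 5% and 15 above the top quartile. Without probe sets that can match several transcripts it was 2 of 12 in the top 5%. B2m, the shared light chain, had 11.66 and 11.70. The heavy chains H2-K1 and H2-D1 had 11.12 and 11.67 and 10.69 and 11.36. Psmb8, a catalytic subunit of the immunoproteasome, had 10.64 and 11.23, whereas its companions Psmb9 and Psmb10 had 8.45 and 8.79 and 8.04 and 8.23. Tapbp (tapasin), which holds empty class I molecules at the peptide transporter, had 10.27 and 10.67. The transporter chains Tap1 and Tap2 were lower in signal, at 7.45 and 7.50 and at 7.36 and 8.18. Erap1, the peptidase that trims peptides in the endoplasmic reticulum, had 5.32 and 5.75. As for lysosomal genes, 16 of the 17 were higher on replicate 2, by a median of 0.40. The proteasome itself, which supplies these peptides, had 13 of 31 subunits in the top 5% and 30 above the top quartile. Psma3 had 10.78 and 11.13, Psmc2 10.49 and 10.61, and only Psmd7 lay below the array median, at 4.75 and 5.56.

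**Figure D2:**
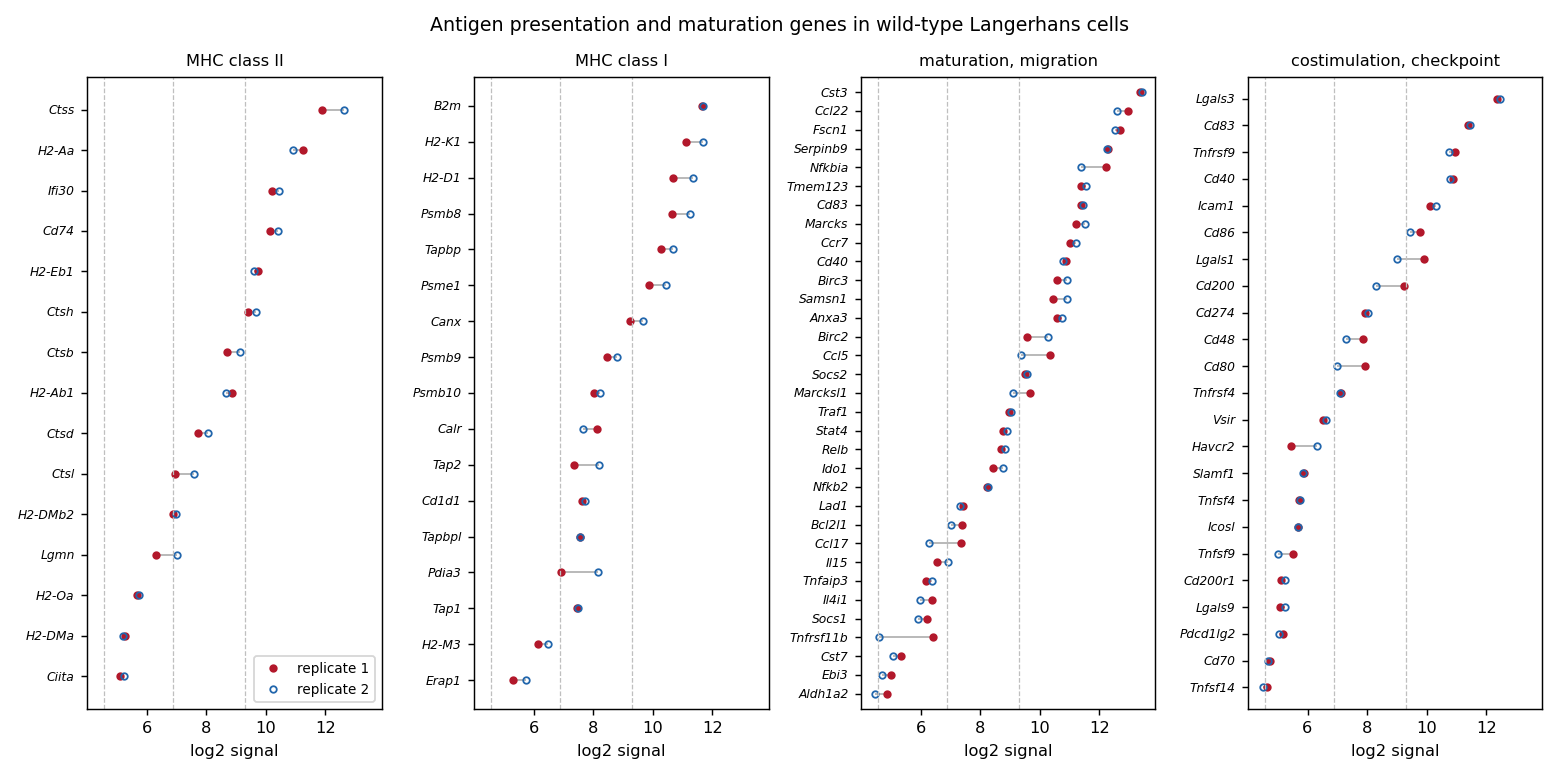
Log2 signal of each measured gene on replicate 1 (filled) and replicate 2 (open) for MHC class II, MHC class I, maturation and migration, and costimulation and checkpoint genes. Dashed lines mark 4.56, 6.88 and 9.31 (array quartiles and the lowest gene of the top 5%), and all but 3 pairs of points lie within 1 log2 unit of each other.

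Maturation and migration genes of dendritic cells had 17 of 33 members in the top 5% (51.5%) and 24 above the top quartile. This list, like the others, was chosen with earlier results of these data known, and Cst3 is also in the lysosomal list. Below Cst3, Ccl22, Fscn1 and Serpinb9, the highest was Nfkbia, the NF-kB inhibitor that NF-kB itself induces, at 12.22 and 11.38. Cd83, the classical surface marker of mature dendritic cells, had 11.40 and 11.44. Marcks, an actin-linked membrane protein, had 11.23 and 11.53. Birc3 and Birc2, ubiquitin ligases of the TNF receptor pathway, had 10.59 and 10.90 and 9.57 and 10.28. Samsn1, an adaptor of activated leukocytes, had 10.44 and 10.93. Ido1, the enzyme that opens the tryptophan ring, had 8.44 and 8.77. Members at the other end were Aldh1a2, the retinoic acid synthesis enzyme of gut dendritic cells, at 4.87 and 4.45, and Ebi3, a subunit of interleukin-27 and interleukin-35, with a mean of 4.85. Ccl17, the companion of Ccl22 as a CCR4 ligand, had 7.37 and 6.28, so its 2 arrays lay on either side of the top quartile. Tnfrsf11b, the decoy receptor osteoprotegerin, had 6.43 and 4.59, a difference of 1.83.

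Costimulation, checkpoint and adhesion ligands had 7 of 23 genes in the top 5% and 12 above the top quartile. Cd40, the receptor through which T cells license dendritic cells, had 10.88 and 10.77. Tnfrsf9, the receptor 4-1BB, had 10.96 and 10.74. Icam1, the ligand of LFA-1, had 10.10 and 10.31. The CD28 ligands differed in signal, with Cd86 at 9.78 and 9.43 and Cd80 at a mean of 7.47, higher on replicate 1 by 0.92. Cd200, a ligand that restrains myeloid cells, had 9.25 and 8.30. Cd274 (PD-L1) had 7.91 and 8.02, whereas Pdcd1lg2 (PD-L2) had 5.19 and 5.05. The T cell-stimulating TNF family ligands Tnfsf4, Cd70 and Tnfsf9 were between 4.68 and 5.76 on either array, all below the 6.48 of the tissue-restricted genes.

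Chemokine ligands had a median of 5.05, against 5.98 for all genes, with a few genes very high. Of 33 measured, 5 were in the top 5% (15.2%, against 4.99% of all genes). Below the array's bottom quartile were 8, where 16.8% of all genes lay. Above the 6.48 of the tissue-restricted genes were 9, where 39% of all genes lay. After Ccl22 came Cxcl2, which draws neutrophils, at 10.44 and 10.61. Cxcl16, the transmembrane ligand of CXCR6, had 10.01 and 10.60. Ccl5 (RANTES), which attracts T cells and monocytes, had 10.33 and 9.38. Cxcl1, which also draws neutrophils, had 9.74 and 9.35. Ccl9 was next at 9.37 and 9.20, and from there the list dropped to 6.91 and 6.88 for Cxcl13, which guides B cells. The other probe sets of Ccl9 and Cxcl13 had means of 5.53 and 4.13, so this drop depends on the probe set chosen. Ccl2, a ligand of the monocyte receptor CCR2, had 4.95 and 5.04. Ccl3, an inflammatory chemokine, had 4.79 and 4.85, and Cxcl10, which interferon induces, 5.44 and 5.46.

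Ccr7 was the only chemokine receptor of 22 in the top 5% (4.55%, against 4.99% of all genes). Cxcr4, the receptor for CXCL12, was the only other member above the top quartile, at 7.43 and 8.26. The remaining 20 receptors ranged from 3.96 to 6.38 on either array. Ccr6, the receptor that draws Langerhans cell precursors to epithelia, had 6.07 and 6.13. Ccr2, the monocyte receptor for CCL2, had 4.37 and 4.41.

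Among 36 cytokine genes 1 was in the top 5% by the mean of the arrays, and 2 on either array alone or with the mean over probe sets. It was Il1b, which encodes the interleukin-1 beta that mobilises Langerhans cells, at 10.98 and 10.25. Il18, a related inflammasome product, had 8.54 and 9.42. Il1rn, the interleukin-1 receptor antagonist, had 7.14 and 6.96, and Inhba, the activin A subunit, 7.05 and 7.03. Tnf had 6.87 and 6.89, at the edge of the top quartile. Il12b and Il12a, the interleukin-12 chains, had 4.70 and 4.80 and 4.76 and 4.64. Il23a, the second chain of interleukin-23, had 3.96 and 4.11. Il6 had 4.76 and 4.01 and Il10 5.77 and 5.22, so none of these 5 reached 6.48 on either array. Tgfb1 had 5.30 and 5.11. Mif, the macrophage migration inhibitory factor, had 9.55 and 6.10, the greatest difference between the arrays among all genes.

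Of 33 uptake lectins, scavenger receptors and Fc receptors, Cd207 and Ly75 were in the top 5% and 9 were above the top quartile. These shares, 6.06% and 27.3%, were close to those of all genes (4.99% and 30.3%). Tyrobp (DAP12) and Fcer1g, the signalling adaptors of many such receptors, had 9.61 and 8.88 and 7.65 and 7.21. Fcgr2b, the inhibitory Fc receptor, had 8.75 and 8.85, whereas the activating Fcgr1 and Fcgr3 had 4.11 and 4.28 and 4.76 and 4.93. Clec7a, the beta-glucan receptor dectin-1, had 8.66 and 8.30, and Clec4n (dectin-2) 7.31 and 7.83. Among receptors of macrophages and other dendritic cells were Mrc1, the mannose receptor, at 5.30 and 5.15 and Cd209a, the mouse DC-SIGN, at 5.15 and 4.87.

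None of 22 Toll-like receptor and inflammasome genes was in the top 5%, against 4.99% of all genes. Above the top quartile were 6 (27.3%, against 30.3% of all genes). These were 4 transducers, Irak1, Traf6, Casp1 and Pycard, with Ly96, the partner of TLR4, and Tlr9, the receptor for CpG DNA. Irak1 was highest at 7.94 and 7.73. Tlr9 had a mean of 6.95, with 0.11 between the arrays, the highest signal of the receptors themselves. Tlr2 had 6.10 and 6.16, Tlr4 5.27 and 5.47, and Tlr3 4.71 and 4.53.

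**Figure D3:**
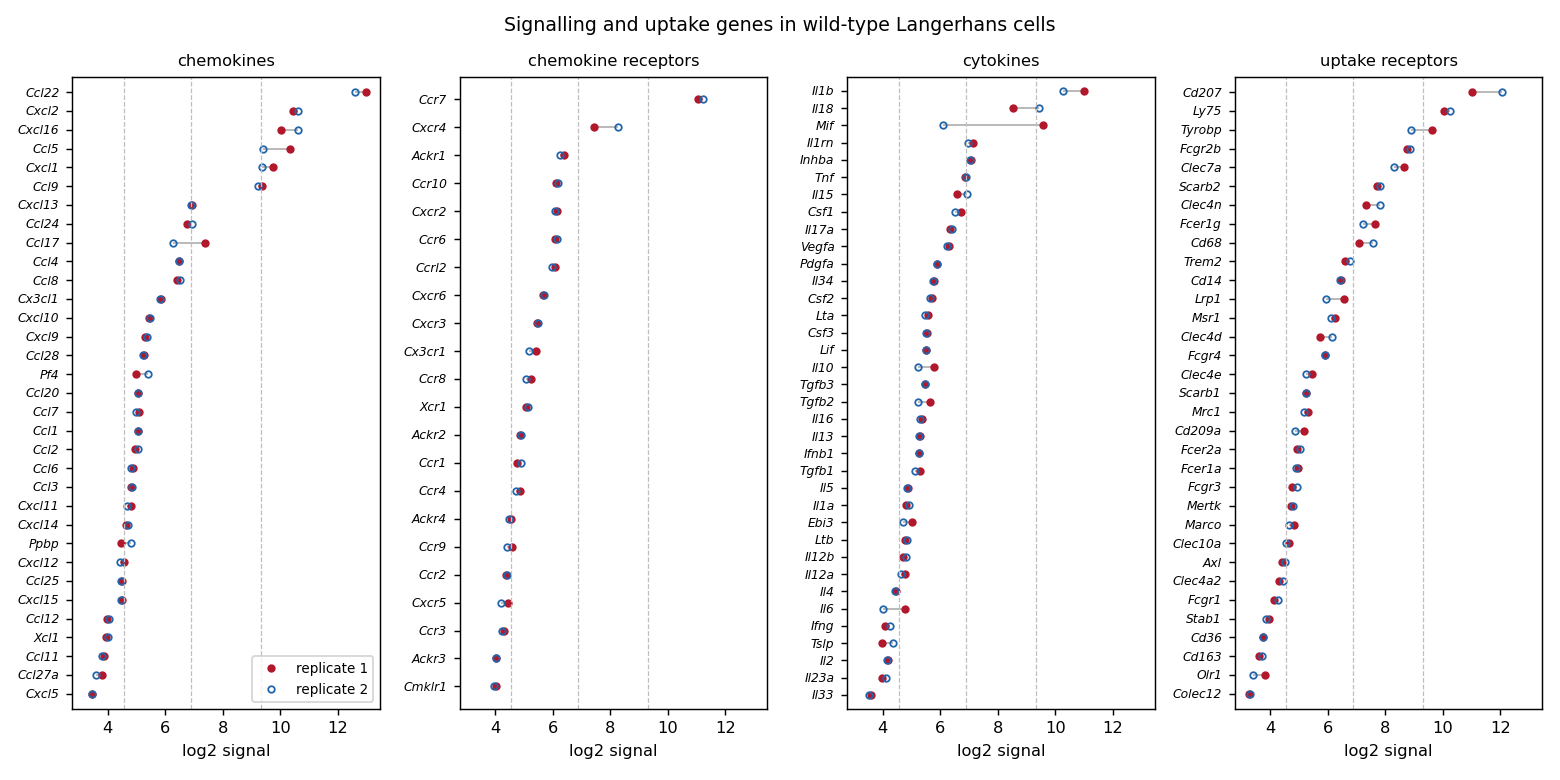
Log2 signal of each measured gene on replicate 1 (filled) and replicate 2 (open) for chemokine ligands, chemokine receptors, cytokines and uptake receptors, with dashed lines at 4.56, 6.88 and 9.31. In each panel between 1 and 5 genes lie above 9.31 by their mean. Most lie below 6.88, as do 69.7% of all genes, and Mif shows the widest gap between the arrays (9.55 and 6.10).

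Interferon-stimulated genes had 2 of 27 members in the top 5% and 9 above the top quartile, close to the shares of all genes (4.99% and 30.3%). Without replicate 2 the first number was 1, and without probe sets that can match several transcripts it was 1 of 18. The pair in the top 5% was Psmb8 and Trim30a, the latter at 9.22 and 9.50. Oas1a, an antiviral oligoadenylate synthetase, had 8.42 and 9.29. Rsad2 (viperin) had 7.55 and 8.95, a gap of 1.40 between the arrays. Ifit1 and Mx1, strongly induced by type I interferon, had 5.28 and 5.32 and 4.19 and 4.31. In this list 21 of 27 genes were higher on replicate 2.

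For the aryl hydrocarbon receptor pathway, 1 of 17 genes was in the top 5%, the chaperone Hsp90aa1 at 11.39 and 11.61. In all, 5 were above the top quartile. Both shares (5.88% and 29.4%) were close to those of all genes (4.99% and 30.3%). Ahrr, the receptor's repressor and target, had 8.26 and 8.38. Tiparp, another target and an ADP-ribose transferase, had 7.67 and 8.81. Ahr itself ranked 1856 of 12393, and its other probe set had 6.27 and 6.30, below 6.48 on both arrays. Its dimer partner Arnt had 4.49 and 4.49, below the array's bottom quartile. Among the xenobiotic enzymes that AhR induces in many tissues were Cyp1a1 at 5.05 and 4.89, Cyp1b1 at 5.64 and 5.72 and Nqo1 at 4.85 and 5.15. Arnt, Cyp1a1, Cyp1b1 and Nqo1 all lay below 6.48 on both arrays.

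Immediate early genes had 4 of 26 members in the top 5% and 15 above the top quartile. The first number was 6 without replicate 1 and 2 without replicate 2. Ier3, a stress-induced survival gene, had 11.89 and 12.03, and Dusp1, a phosphatase that ends MAP kinase signals, 11.12 and 11.31. Zfp36, which destabilises cytokine messages, had 9.23 and 9.42. Among the transcription factors, Fos had 8.36 and 10.02, and Egr1 7.04 and 8.31, both higher on replicate 2 by more than 1. Jun had 8.48 and 8.66. Myc was low at 4.13 and 3.89.

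The actin cytoskeleton list had 23 of 32 genes in the top 5% (71.9%) and 28 above the top quartile, with a median of 10.05. Cfl1 (cofilin), which severs filaments, had 11.94 and 11.41. Lsp1 and Lcp1, leukocyte actin-binding proteins, had 11.50 and 11.68 and 10.75 and 10.42. Was, the blood cell activator of the Arp2/3 complex, had 6.21 and 5.61. Arpc2 and Arpc5, subunits of that complex, had 11.81 and 12.05 and 10.90 and 11.05. Many of these genes are represented by probe sets of the types that can match more than a single transcript, and without such probe sets 11 of 28 remained in the top 5%.

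Ribosomal proteins had 34 of 44 measured genes in the top 5% (77.3%), with a median of 10.47. Rps4x was highest at 11.66 and 11.96, and Rpl14 lowest at 4.75 and 4.54. Ribosomal proteins have many processed pseudogenes, and without probe sets of the types that can match several transcripts only 20 were measured and 6 were in the top 5%. The respiratory chain and ATP synthase had 21 of 69 genes in the top 5% and 64 above the top quartile (92.8%). Uqcrb of complex III had 12.49 and 11.41, Cox5b of complex IV 11.49 and 10.24, and Atp5a1 of ATP synthase 10.55 and 10.51. Without the probe set types named above, 10 of 51 were in the top 5%.

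Glycolysis and hypoxia genes had 8 of 22 members in the top 5%, but without replicate 1 this number was 4. Pgk1, an ATP-yielding enzyme of glycolysis, had 12.63 and 12.09. Hif1a, the oxygen-sensitive factor, had 10.04 and 10.15. Slc2a1, the glucose carrier GLUT1, had 10.04 and 9.21. Tpi1, Ldha and Bnip3 were in the top 5% by their mean, at 10.58 and 8.49, 10.13 and 8.65, and 10.85 and 7.80, and all 3 lay below 9.31 on replicate 2. Egln3, a hydroxylase that hypoxia induces, had 4.68 and 4.51.

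Cholesterol and fatty acid synthesis had 2 of 26 genes in the top 5%, Hmgcs1 at 10.44 and 10.81 and Idi1 at 9.71 and 9.99, both enzymes of the mevalonate route. Dhcr7, the last step to cholesterol, had 4.89 and 4.79. Antioxidant genes had 3 of 22 in the top 5%: the thioredoxin gene Txn1 at 12.36 and 12.01, Gpx1 at 10.46 and 11.71, and the ferritin chain Fth1 at 10.01 and 10.24. Hmox1, a heme oxygenase that Nrf2 induces, had 5.87 and 5.91. The unfolded protein and heat shock list had 9 of 25 in the top 5%, but 4 with the mean over each gene's probe sets and 5 of 20 without probe sets that can match several transcripts. Hspa8, the constitutive HSP70, had 12.36 and 12.73, and Hspa5, the chaperone BiP, 10.55 and 11.27. Atf4, a factor of the integrated stress response, had 9.65 and 9.83, whereas Ddit3 (CHOP), a later step, had 6.44 and 6.66 and Trib3 5.06 and 4.94.

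Cell cycle genes had 1 of 39 members in the top 5%, and 2 without replicate 1. By the mean of the arrays it was Cdkn1a, the p21 inhibitor of cyclin-dependent kinases, at 11.58 and 10.87. Pcna, the sliding clamp of replication and repair, had 8.93 and 9.50. Mitotic genes included Cdk1 at 5.53 and 5.71, Top2a at 5.91 and 6.08 and Birc5 at 4.82 and 4.97. Mki67, the marker of cycling cells, had 6.50 and 6.34, close to the 6.48 of the tissue-restricted genes. The list median was 5.81, below the 5.98 of all genes.

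**Figure D4:**
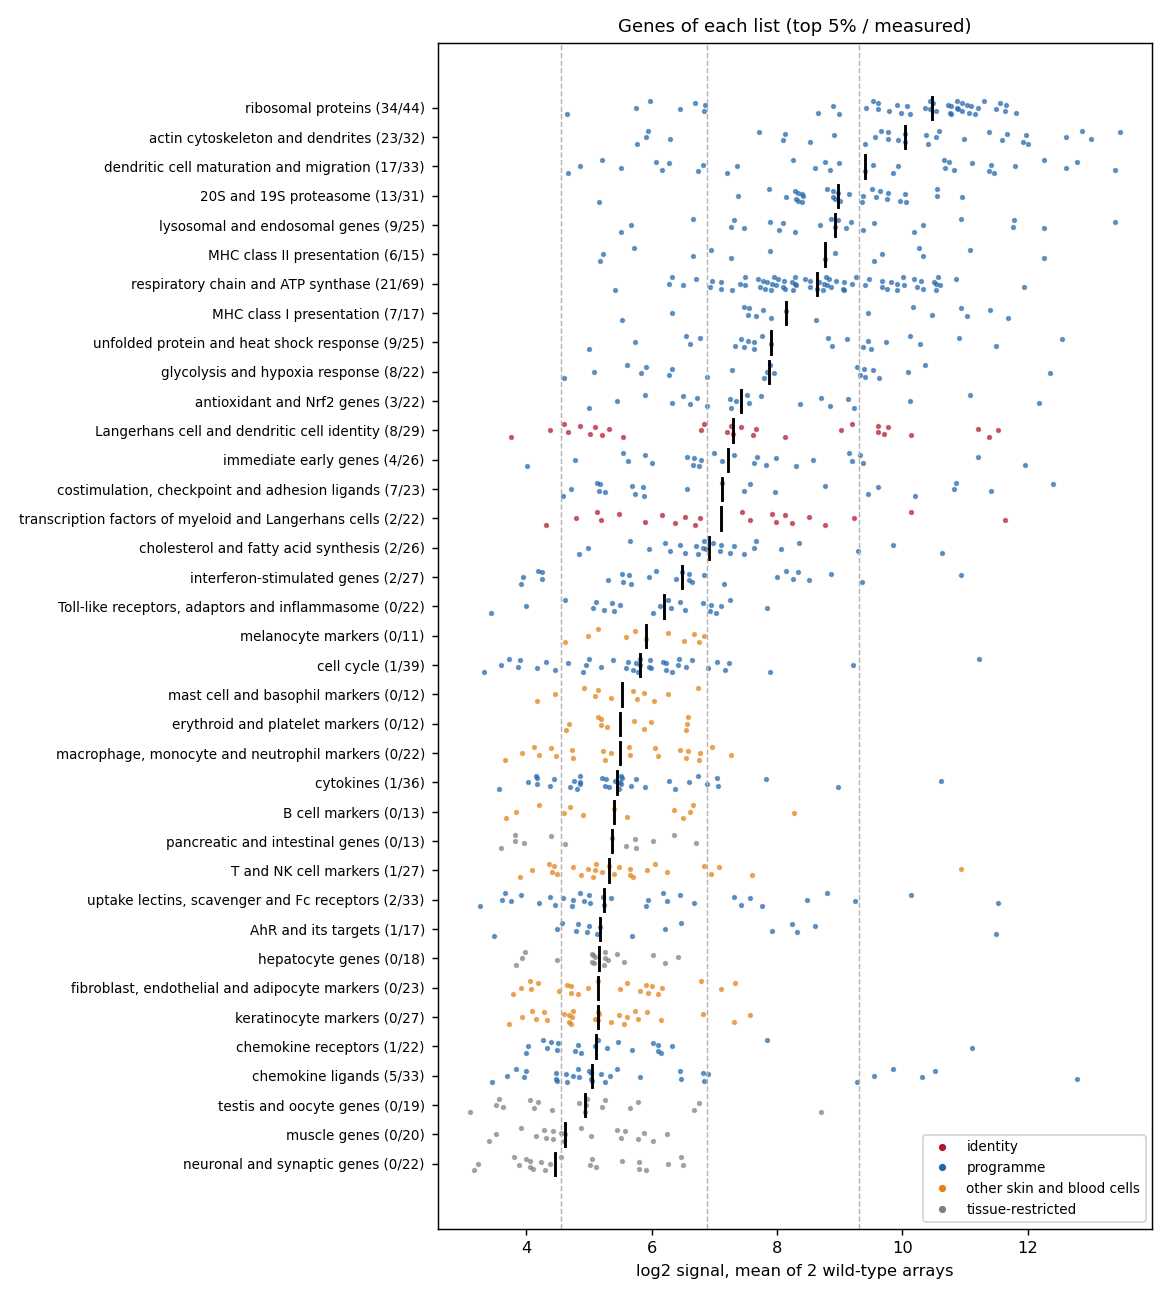
Mean log2 signal of every measured gene (points) in 37 lists, sorted by the list's median (black bar), with the number in the top 5% and the number measured after each name and dashed lines at 4.56, 6.88 and 9.31. Ribosomal, actin and maturation genes have the highest medians, and markers of other skin and blood cells have medians between 5.14 and 5.91.

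Markers of other cells that an epidermal sort could hold were checked in the same way. For keratinocytes, the main cells of the epidermis, 0 of 27 markers were in the top 5%, 2 were above the top quartile and 6 below the bottom quartile. The range was 3.79 to 7.57 on replicate 1 and 3.65 to 7.57 on replicate 2. The 2 were Pkp1, a desmosomal plaque gene, at 7.57 and 7.57, and Jup (plakoglobin) at 7.42 and 7.20. The keratins that define the basal layer were measured, with Krt5 at 6.09 and 6.21 and Krt14 at 4.60 and 4.76. Krt10 of the upper layers had 4.72 and 4.75. Together the 27 genes made up 0.0590% and 0.0587% of the linear signal of all genes.

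T and NK cell markers are of interest because the epidermis holds dendritic T cells. Of 27 measured, 1 was in the top 5% (3.70%, against 4.99% of all genes). Above the top quartile were 4 (14.8%, against 30.3% of all genes). The 27 ranged from 3.94 to 10.64 on replicate 1 and from 3.87 to 11.24 on replicate 2. The highest was Il7r, the interleukin-7 receptor, at 10.64 and 11.24, which maturing dendritic cells can also make. Klrd1 (CD94) had 8.25 and 6.96, Zap70, a kinase of the T cell receptor, 7.15 and 7.01, and Cd3e 6.98 and 6.90. The other probe sets of Il7r and Zap70 had means of 7.57 and 5.38. The other CD3 chains Cd3g and Cd3d had 5.80 and 5.50 and 5.26 and 4.86. Whether a few T cells contributed to the signals was not tested.

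The remaining 6 marker lists had no gene in the top 5%. B cell markers had 1 of 13 above the top quartile, Ighm at 8.22 and 8.32, whose 11 probe sets reached down to a mean of 3.97, while Cd79a had 4.72 and 4.67. Markers of macrophages, monocytes and neutrophils had 2 of 22, Adgre1 (F4/80) at 7.11 and 7.43 and C1qb at 6.61 and 7.32. The other C1qb probe sets had means of 5.59 and 5.57. Langerhans cells themselves carry F4/80. S100a8, an abundant neutrophil gene, had 4.05 and 3.81. Fibroblast, endothelial and adipocyte markers had 2 of 23, the smooth muscle actin Acta2 at 7.38 and 7.28 and the collagen Col1a2 at 7.15 and 7.06. The other probe sets of Acta2 and Col1a2 had means of 3.99 and 4.32, and Col3a1 had 4.06 and 4.09. Mast cell and basophil, melanocyte, and erythroid and platelet lists had 0 of 12, 0 of 11 and 0 of 12 above the top quartile, against 30.3% of all genes. Above the 6.48 of the tissue-restricted genes these lists had 1, 4 and 3 members. The B cell, macrophage and fibroblast lists had 4, 6 and 3 members above it, against 39% of all genes. Xist, the RNA of the inactive X chromosome, had 10.77 and 10.42, with its lowest of 3 probe sets at a mean of 4.10, and the Y-linked Kdm5d, Uty and Eif2s3y had 5.20 and 4.91, 3.83 and 3.79, and 3.20 and 3.27.

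The arrays agreed closely in signal and less closely for the genes with the highest signals. Across the 12393 genes, which are not independent replicates, Pearson's r of the log2 signals was 0.987. Within the top 5%, which spans a narrower range of signals, it was 0.830. The median absolute difference was 0.117 over all genes, 0.0760 in genes below the bottom quartile, 0.184 above the top quartile and 0.248 in the top 5%. Pooled over genes, the SD of the 2 samples was 0.19 for all genes and 0.35 in the top 5%. Of the 619 genes of the top 5% by the mean, 527 were in the top 5% on each array. The genes nearest the border, Gabarapl1 just inside at 9.24 and 9.39 and Sugt1 just outside at 9.07 and 9.56, differ by far less than that spread.

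In all, 118 genes differed by 1 or more between the samples. Of these, 78 were higher on replicate 1, 0.629% of all genes, and 40 on replicate 2, 0.323%. The 78 held 20 genes of the respiratory list and 10 ribosomal protein genes. After Mif, the genes above the top quartile with the greatest excess on replicate 1 were Bnip3, Rpl38, Tmsb10, Rps28, Rps29, Romo1, Tomm7, Atp5j2 and Higd1a. Rpl38 had 11.26 and 8.58, Rps29 11.93 and 9.52, and Tmsb10, an actin monomer binder, 9.37 and 6.87. Over whole lists, 55 of 69 respiratory genes were higher on replicate 1 and 20 by 1 or more, with a median difference of 0.51. For ribosomal proteins it was 31 of 44, 10 by 1 or more, with a median of 0.32, and for glycolysis and hypoxia genes 17 of 22 with a median of 0.59. No respiratory, ribosomal or glycolysis gene was higher by 1 or more on replicate 2, which is close to the 0.323% of all genes.

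On replicate 2 the greatest excess above the top quartile was that of Fos, by 1.65. It was followed by Paf1, a subunit of a transcription elongation complex, at 8.34 and 9.95. Then came Cldn1, a tight junction protein of Langerhans cells and keratinocytes, at 7.16 and 8.65. The others were Rsad2, Ptbp2, Malat1, Egr1, Gpnmb, Hexa and Dnaja2, each higher by between 1.26 and 1.40. Cd207 was also among the 40 genes, and leaving out replicate 2 put it at percentile 99.1 in place of 99.6.

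Measures of the RNA and the hybridisation also differed between the arrays. The probe sets for the bacterial dap, lys, phe and thr controls were higher on replicate 1 in 24 of 24 cases, by a median of 0.59. The 18 bio and cre controls differed by a median of 0.09. The 3' minus 5' difference in log2 signal was 3.16 and 2.65 for Actb and 2.60 and 1.97 for Gapdh. Genes higher by 1 or more on replicate 1 had a median genomic span of 5.05 kb, against 20.1 kb for all genes and 15.1 kb for those higher by as much on replicate 2. For the ribosomal list the median span was 3.45 kb and for the respiratory list 7.13 kb. The MHC class I list, with 16 of 17 genes higher on replicate 2, had 5.40 kb. Genomic span is not transcript length, and the part of these measures in the difference between the arrays was not tested.

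**Figure D5:**
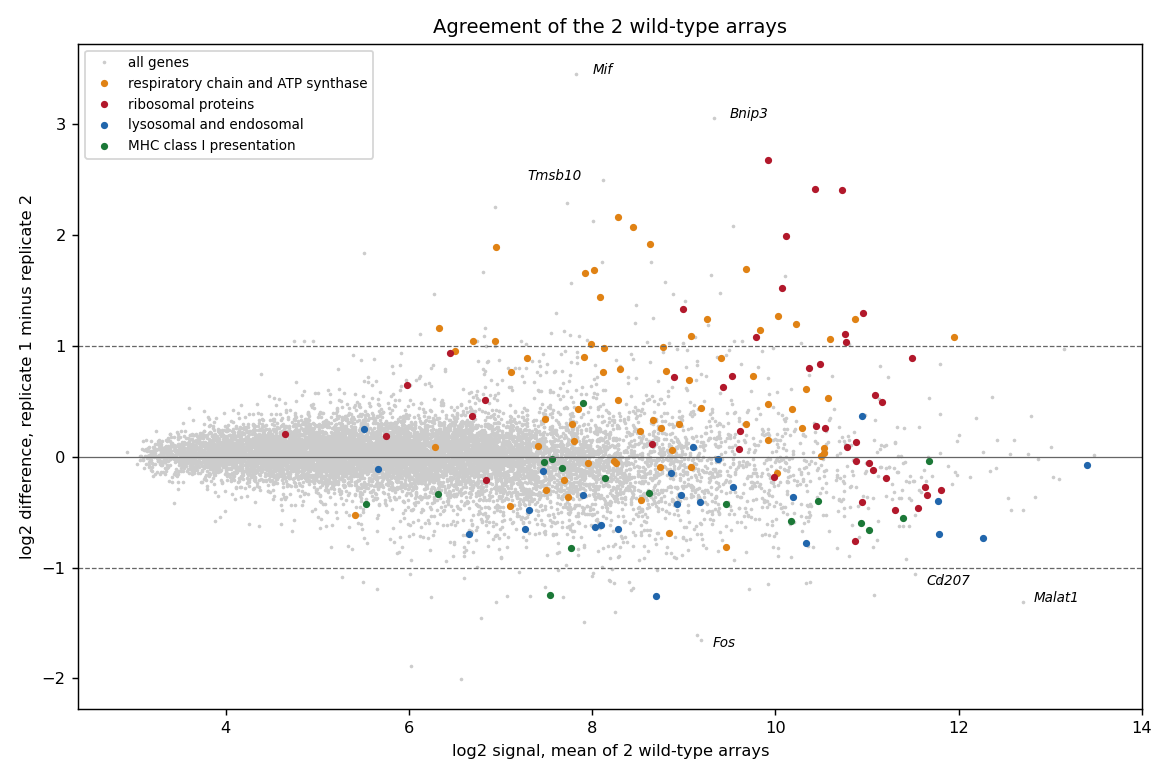
Difference between the 2 wild-type arrays (replicate 1 minus replicate 2, log2, vertical axis) against their mean (horizontal axis) for 12393 genes in grey, with 4 lists in colour and dashed lines at 1 and -1. Respiratory and ribosomal genes reach above the upper line, while most lysosomal and MHC class I genes lie below 0.

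Of the 619 genes of the top 5%, 171 were in a list and 448 in none. The 15 unlisted genes with the highest signals outside the first 30 had means between 11.46 and 11.88. Mcl1, which protects leukocytes from apoptosis, had 11.98 and 11.60. Rgs1, which dampens chemokine receptor signals, had 11.23 and 12.35, a gap of 1.11. Srgn (serglycin), the core protein of secretory granules, had 11.69 and 11.43. Csf2rb2, the interleukin-3 receptor beta chain, had 11.15 and 11.78. Tpm4, a tropomyosin of actin filaments, had 11.66 on both arrays, and Brk1, a small subunit of the WAVE complex, 11.40 and 11.62. Ahnak, a giant scaffold protein, had 11.29 and 11.68. Hnrnpk, Hnrnpdl and Ddx5 bind RNA and had means of 11.59, 11.52 and 11.46. The rest were Bzw1, Zfand6, Atxn10, Rbbp4 and Vwa5a.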

How the data were processed

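The data table holds deposited log2 values, and affy and RMA are the tools in the submitters' processing notes, without versions. RMA subtracts background, equalises the distributions of the arrays and merges the probes of a set. Both wild-type columns were used as deposited. Of 22690 probe sets, 64 controls were left out. In the platform annotation 20380 of the other 22626 had 1 symbol, 691 several and 1555 none. The probe set with the greater mean of both arrays stood for a gene, and 4956 of 12393 genes had more than 1, with a median range of 1.56. Probe sets ending in _s_at, _x_at or _a_at can match several transcripts and stood for 3255 genes, 344 of them in the top 5%.

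Percentiles are among the 12393 genes. No test was made, since there is 1 group of 2 samples, and the number of arrays limits the precision. The 39 lists, with 876 measured genes, were chosen with earlier results of these data known. Named genes are the first 30 by mean, list members, the 10 with the largest difference in each direction above the top quartile, and 15 unlisted genes of the top 5%. Promoters are from RefSeq (GRCm38.p6). Alternatives were the mean of a gene's probe sets, fewer probe set types, quantile normalisation repeated, ranking all probe sets, and each array alone. Python 3.11.15, pandas 2.3.3, numpy 2.4.6 and matplotlib 3.10.9 were used, and the ranking was tested on simulated data.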

Additional observations from a re-analysis of the deposited data

How the results depend on the processing

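No paired analysis was possible because a single group was described and no result comes from a test. With the mean over all of a gene's probe sets, 77 genes differed by 1 or more between the arrays, against 118. The top 5% then held 15 actin genes, against 23, and the percentiles of the markers were 99.7 for Ccr7, 99.2 for Cd74, 99.7 for Epcam and 98.5 for H2-Aa. Without probe sets ending in _s_at, _x_at or _a_at, 10529 genes were left and 70 differed by 1 or more. The top 5% then held 11 of 28 actin, 4 of 16 glycolysis, 2 of 12 MHC class I, 10 of 51 respiratory and 6 of 20 ribosomal genes, and Ccr7 was at percentile 99.6. Of the 5 markers, Cd207 and Ccr7 alone could be ranked there. Leaving out a replicate gave 4 to 7 glycolysis genes in the top 5%, and percentiles of 99.1 to 99.2 for Ccr7 and 99.1 to 99.8 for Cd207. With quantile normalisation again, glycolysis had 7 genes in the top 5% in place of 8, and the other list counts were equal to those given. RMA had already equalised the distributions, so this repeat could change little and is a weak check. The cause of these changes was not tested, beyond the smaller number of genes measured. With 2 arrays and no detection calls, low signals cannot be told from absence.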
